A study of Mus musculus with 6 samples.

Results

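Interferon-stimulated antiviral genes encode the proteins that restrict viruses inside a cell, and 39 of them were followed in wildtype (WT) mouse embryonic fibroblasts (MEFs) during treatment with the cytokine TNFα. The members were chosen by symbol from a list of 40 antiviral genes, and where a symbol had several rows the one with the highest mean was kept. They make up 39 of the 20275 protein coding symbols that the table of RefSeq transcripts lists, and the remaining symbol, Ifi27, was not analysed here. Each of 4 RNA libraries came from one condition, namely no treatment or TNFα at 20 ng/ml for 1.5, 6 or 24 hr. The MEFs were primary cells of mixed C57BL/6x 129 background, taken from littermate embryos of 13.5 days and passaged 4 times, and every library came from cells of this kind. The untreated cells received no TNFα. H3K4me3, a histone mark of promoters, was profiled in untreated MEFs of the same passage with 1 ChIP-seq library, for which 1 input library served as the reference.

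Interferons are secreted by infected cells and bind receptors on neighbouring cells. The type I receptor, made of IFNAR1 and IFNAR2, activates the kinases JAK1 and TYK2, which phosphorylate transcription factors such as STAT2. Together with IRF9 these form a complex that binds the interferon-stimulated response element (ISRE) in the promoters of the antiviral genes. TNFα signals through other receptors to NF-κB, and it is known to induce IRF1, a factor that binds closely related DNA elements.

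A level is the mean of the R1 and R2 columns that the authors deposited for each library, in the RPKM units of their table. RPKM is meant to correct for transcript length. The deposited values are on a scale of the authors' own, and how well levels of different genes compare on it was not tested. What the R1 and R2 columns each hold is not stated, and they were not taken as replicates. With 1 library per time no test across replicates was possible, so every fold below is the ratio of 2 libraries, with no p-value. Across coding genes with a level above 100, the median difference between R1 and R2 was between 0.07 and 0.13 on the log2 scale in the 4 libraries, and 95% of genes differed by less than 0.33 to 0.43. Since read numbers are not part of the table, depth is unknown and no counting interval is given. In bulk RNA a lower level can mean fewer cells of a type, less of that RNA in each cell or a difference of the whole library. From a level alone these cannot be told apart.

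The libraries differed as a whole. Over 14272 coding genes with a value above 0 in every library, the treated libraries had median log2 ratios of 0.41, -0.75 and 0.06 in order of time. Log2 ratios are therefore given as deposited and, where it matters, relative to this median. The cells carried the markers of fibroblasts, with Col1a1 at 44002, Thy1 at 18145 and Fn1 at 9786 in the untreated library. Of 10 markers of macrophages and other leukocytes, 8 had values above 0, and Lyz2 had a level of 2257 before treatment, then 14668, 2692 and 7187 at 1.5, 6 and 24 hr. The summed level of the 10 was 5727 before treatment, then 18877, 3874 and 9503. Lyz2 made up most of this sum in each treated library, so the sum mainly follows that gene. Lyz2 was not the only one above the untreated library at 1.5 hr. Emr1 (1.49 on the log2 scale), Tyrobp (1.11), Itgam (0.65), Cd68 (0.44) and Ptprc were also above it. Not all of the 10 were higher at 1.5 hr, as Csf1r (-0.04) and Fcer1g (-0.73) show. Before treatment Fcer1g was at 1574, Tyrobp at 916, Cd68 at 605 and Csf1r at 295. At 24 hr Csf1r (-1.25) and Fcer1g (-1.53) were below the untreated library, whereas Ptprc (0.31) was above it. Ptprc was between 8.63 and 30.8, and the T cell marker Cd3e was listed at 0 in every library. Macrophages express many of the same antiviral genes, and the part of such cells in the values below was not tested. The 10 fibroblast markers summed to 90923, 89870, 43327 and 55164, and the 5 endothelial markers to at most 6.93.

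The promoters of the members were searched for the element that the interferon-activated factors bind. RefSeq windows (GRCm38.p6), from 250 bases before the start of the gene to 50 bases after it, were at hand for 29 of the 39 members, and those of Usp18, Oas1b, Oas2, Mx1, Mx2, Dhx58, Zbp1, Parp9, Parp14 and Rtp4 were not used here. The ISRE core was searched on either strand as GAAA, any 2 bases and a second GAAA. It was found for 14 of the 29 members (48.3%) and for 3.91% of 14214 coding genes of the table with such windows. The longer form, in which any 2 bases and one more GAAA follow, contains the core and was found for 5 members, Isg15, Oas1a, Oas1g, Bst2 and Trim21, and for 0.162% of the coding genes. The 160 bases before the start are printed for members whose levels are described below, 5′ to 3′ on the strand of the gene, with matches to the core in capitals. Xaf1 is shown for comparison, since it holds no match in the window.
Isg15, chr4:156200819-156200978, minus strand: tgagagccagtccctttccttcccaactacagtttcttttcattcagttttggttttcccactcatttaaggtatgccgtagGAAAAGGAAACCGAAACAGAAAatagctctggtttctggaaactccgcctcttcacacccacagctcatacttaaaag
Ifit1, chr19:34640729-34640888, plus strand: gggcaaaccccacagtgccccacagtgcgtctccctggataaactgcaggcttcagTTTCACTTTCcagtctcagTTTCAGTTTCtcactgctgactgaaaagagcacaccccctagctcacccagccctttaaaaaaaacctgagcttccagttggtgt
Ifit3, chr19:34583369-34583528, plus strand: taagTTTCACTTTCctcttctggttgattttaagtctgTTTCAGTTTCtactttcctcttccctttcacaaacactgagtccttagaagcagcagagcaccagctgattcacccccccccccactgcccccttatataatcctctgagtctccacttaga
Oas1a, chr5:120907526-120907685, minus strand: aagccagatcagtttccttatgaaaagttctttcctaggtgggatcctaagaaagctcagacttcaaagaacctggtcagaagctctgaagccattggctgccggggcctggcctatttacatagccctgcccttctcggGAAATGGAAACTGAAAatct
Oas1g, chr5:120887614-120887773, minus strand: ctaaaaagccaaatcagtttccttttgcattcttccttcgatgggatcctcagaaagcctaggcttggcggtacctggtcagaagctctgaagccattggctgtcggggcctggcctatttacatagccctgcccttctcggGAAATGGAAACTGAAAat
Bst2, chr8:71537473-71537632, minus strand: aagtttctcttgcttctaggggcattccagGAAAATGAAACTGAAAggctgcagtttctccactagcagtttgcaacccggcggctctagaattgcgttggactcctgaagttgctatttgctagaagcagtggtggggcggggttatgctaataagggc
Ifitm2, chr7:140955962-140956121, minus strand: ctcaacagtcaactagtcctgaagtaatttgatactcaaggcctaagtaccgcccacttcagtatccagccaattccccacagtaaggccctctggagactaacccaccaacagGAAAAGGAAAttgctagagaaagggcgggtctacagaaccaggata
Xaf1, chr11:72301469-72301628, plus strand: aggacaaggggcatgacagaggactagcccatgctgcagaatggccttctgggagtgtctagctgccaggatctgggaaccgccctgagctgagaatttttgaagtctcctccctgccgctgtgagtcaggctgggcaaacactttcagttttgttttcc

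In Isg15, 3 overlapping matches form a run from 78 to 57 bases before the start. Ifit1 and Ifit3 each hold 2 separate matches on the opposite strand, the nearer of them ending 76 and 113 bases before the start. Oas1a and Oas1g hold 2 overlapping matches of the same letters, which end 5 and 3 bases before the start. Oas3 and Rsad2 also hold a match before the start, and in Ddx58, Ifih1, Eif2ak2, Ifitm3 and Trim21 the matches lie after it. The NF-κB consensus site (κB motif), to which the factors activated by TNFα bind, was found for 6 of the 29 members, Ifit2, Oas3, Oasl1, Bst2, Ifitm3 and Isg20 (20.7%), and for 10.9% of coding genes. The GAS element, named for activation by interferon γ and searched as TTC, any 3 bases and GAA on either strand, was found for 8 members (27.6%) and 9.08% of coding genes, and in Bst2 one match overlaps the first ISRE match. In the 15 members with windows but no core, log2 ratios at 1.5 and 24 hr had medians of 1.57 and 1.49, against 1.17 and 1.03 in the 14 with it. Among the 15 were Oasl2, Xaf1 and Samd9l, so that ratios above 1 on the log2 scale were seen with and without the core. The groups also differed in level, with untreated medians of 86.2 with the core and 40.4 without it. Only exact matches in these windows were counted, and whether the core bears on the ratios was not tested.

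Before treatment the members spanned levels from 0.301 to 13734, with a median of 40.4, where the median of all coding genes above 0 was 48.2. Only 3 were above 1000, namely Ifitm3, Ifitm2 and Bst2, which act at membranes, and 9 were under 10. Ifitm2 and Ifitm3 together held 84.6% of the summed level of the members before treatment, and 80.7%, 68.5% and 78.1% at 1.5, 6 and 24 hr. The 6 hr sum of 16317 includes Ifit1 at 2283, a value on which its R1 and R2 columns did not match.

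The members as a list were higher than before treatment at 1.5 and 24 hr. In order of time their log2 ratios had medians of 1.24, 0.09 and 1.19, beside medians of 0.41, -0.75 and 0.06 for coding genes. Relative to those, the members' medians were 0.82, 0.84 and 1.13. Of the 39 members, 34, 20 and 33 had log2 ratios above 0 in the same order, and 29, 29 and 32 were above the coding median. At 6 hr the sign of many single ratios therefore differs between the deposited scale and the scale relative to other genes.

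**Figure D1:**
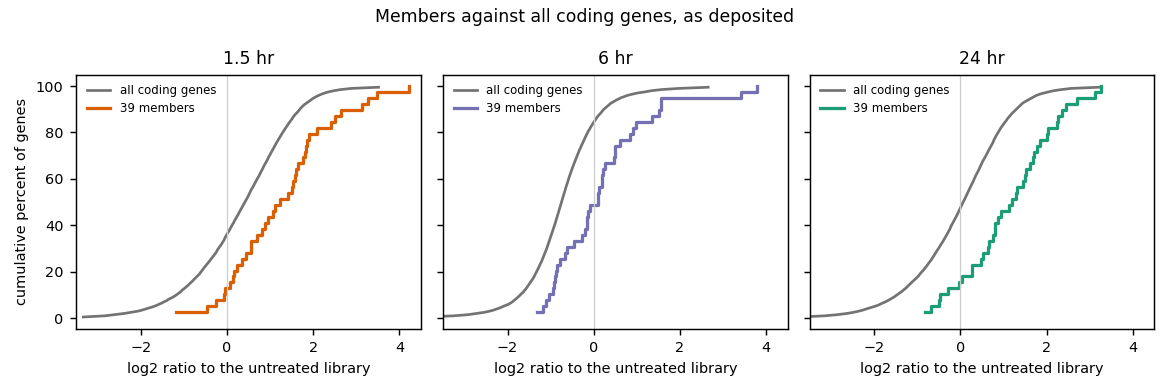
Cumulative percent of genes (y axis) against the log2 ratio to the untreated library (x axis) at 1.5, 6 and 24 hr of TNFα, for the 39 members (coloured) and for coding genes above 0 in every library (grey). The medians of the members lie to the right of those of the coding genes, at 1.24, 0.09 and 1.19 against 0.41, -0.75 and 0.06.

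A gene was called when its mean over the 4 libraries was above 100 and it differed at least 2-fold from the untreated library. At 1.5 hr 7 of the 39 members were called higher, Isg15, Ifit1, Ifit3, Ddx58, Ifitm1, Rtp4 and Xaf1, and 0 lower. Over all 20275 coding symbols the share called higher was 8.88% and the share called lower 2.38%, and for the members they were 17.9% and 0%. At 24 hr the calls were 7 members higher, which were the same 7 genes, and 0 lower, beside 5.02% of coding symbols higher and 3.83% lower. At 6 hr only Ifit1 was called higher and only Trim25 lower, beside 0.547% and 9.39% of coding symbols. The mean of 100 was reached by 15 members, several of which, such as Rtp4 and Ddx58, reached it through the libraries where they were high. Without that minimum, in order of time, 22, 6 and 21 members were at least 2-fold higher, beside 23.8%, 4.06% and 14.5% of coding symbols. At least 2-fold lower were 1, 4 and 0 members, beside 14.1%, 31.4% and 17.9%. Both at 1.5 and at 24 hr, 21 members were at least 2-fold higher, as were 12.1% of coding symbols. After scaling to the median of ratios, 4 members were called higher at 1.5 hr (Isg15, Ddx58, Rtp4 and Xaf1), 2 at 6 hr (Ifit1 and Rtp4) and the same 7 at 24 hr, beside 4.93%, 2.19% and 4.49% of coding symbols, and 0 members were called lower, beside 5.14%, 0.922% and 4.46%.

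**Figure D2:**
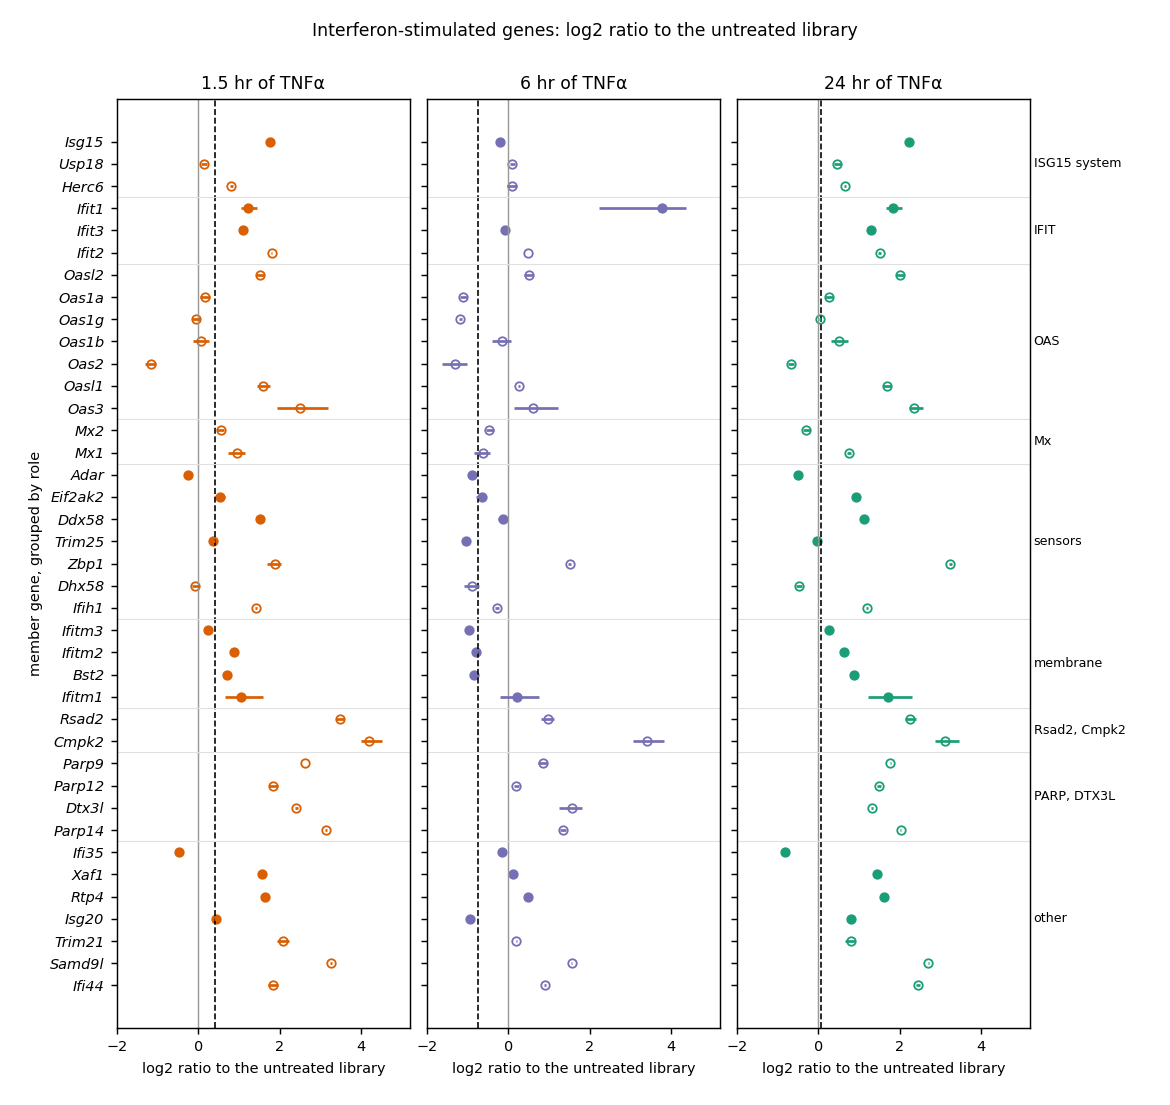
Log2 ratio to the untreated library (x axis) of each of the 39 members (y axis, grouped by role) at 1.5, 6 and 24 hr. Points are the mean of the R1 and R2 columns, filled where the mean level over 4 libraries is above 100, and lines span the ratios from each column alone. The dashed line is the median of coding genes. At 1.5 hr Cmpk2 (4.21) is farthest to the right and Oas2 (-1.17) farthest to the left, and at 6 hr the line of Ifit1 spans 2.23 to 4.36.

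Values in every library are given for the 15 members with a mean above 100 and for Oasl2, Parp9, Parp12, Oas1a and Usp18, the next 5 by mean level. Other members for which values appear were picked with their values known.

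ISG15 is a ubiquitin-like protein that is attached to other proteins, USP18 removes it and also dampens receptor signalling, and HERC6 is the ligase that attaches it in mice. Isg15 had a level of 324 before treatment, then 1099, 283 and 1529 at 1.5, 6 and 24 hr, which is 3.40-fold the untreated level at 1.5 hr and 4.72-fold at 24 hr. From the R1 and R2 columns alone the log2 ratios were 1.69 and 1.83 at 1.5 hr and 2.20 and 2.27 at 24 hr, so the columns differed far less than the libraries. Usp18 was at 70.6, 77.4, 75.8 and 97.6 in the same order of times. Its highest log2 ratio, 0.47 at 24 hr, was small beside that of Isg15. Herc6, with a mean of 10.4, had log2 ratios of 0.82, 0.09 and 0.66.

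The IFIT proteins bind viral RNA and block its translation, and their genes lie in a cluster on chromosome 19 of mm9. Ifit3 was at 84.4 before treatment, then 181, 79.3 and 207 at 1.5, 6 and 24 hr. Ifit1 was at 165, 390, 2283 and 595. Its value at 6 hr was the highest of any library for this gene, but it rested on columns that did not match: 663 in R1 and 3904 in R2. Only 8 of 4378 coding genes with a level above 100 at 6 hr (0.183%) had columns as far apart, Ifit1 included. Both columns were above the untreated library, with log2 ratios of 2.23 and 4.36, and the neighbours Ifit2 (0.49) and Ifit3 (-0.089) had no such value at 6 hr. At 1.5 and 24 hr it was 2.36-fold and 3.60-fold above the untreated library. The untreated columns were 141 and 189, so that the log2 ratios from R1 and R2 were 1.44 and 1.06 at 1.5 hr and 2.06 and 1.67 at 24 hr. Ifit2 was called at no time for its low level, with a mean of 23.8, and its log2 ratios at 1.5 and 24 hr were 1.81 and 1.51. Of the 50-base sequences in Ifit3 coding transcripts, 51.5% also occur in the neighbouring gene I830012O16Rik, and how the authors counted shared reads is not stated, so the value of Ifit3 is uncertain to that extent.

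The OAS proteins sense double-stranded RNA, and the active ones make the messenger that activates RNase L. These genes gave ratios in both directions. Oasl2 was at 41.6, 119.5 at 1.5 hr, 58.9 at 6 hr and 168 at 24 hr, a 4.03-fold difference at the last time. Oasl1 had log2 ratios of 1.60 and 1.69 at 1.5 and 24 hr, at a mean level of 8.04. Oas1a was at 90.1, 101, 41.8 and 108, and its log2 ratios of 0.16 and 0.26 at 1.5 and 24 hr were -0.25 and 0.20 relative to the median of coding genes. Oas1g gave -0.05 and 0.04 at these times, and 53.0% of the 50-base sequences of Oas1a also occur in another coding gene, chiefly Oas1g, so the 2 genes are not separate measurements. Oas1b, which in most laboratory strains carries an early stop codon, gave 0.07 and 0.52. Oas2 was lower at each time, by log2 ratios of -1.17, -1.31 and -0.68, from a level of 17.2. Oas3 was at 0.301 in the untreated library and at most 1.70 later, too low for its ratio of 2.50 at 1.5 hr to be firm, with 3.20 in R1 and 1.95 in R2. The Mx genes encode GTPases that trap viral particles, and Mx1 is defective in most laboratory strains. Mx1 and Mx2 had log2 ratios of 0.94 and 0.55 at 1.5 hr, and neither was 2-fold from the untreated library at any time.

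Among the sensors of viral nucleic acid, Ddx58 (RIG-I) was at 61.6 before treatment, then 176, 56.2 and 135 at 1.5, 6 and 24 hr, so that it was 2.85-fold higher at 1.5 hr. Ifih1 (MDA5), at a mean of 15.9, followed a like course with log2 ratios of 1.42, -0.28 and 1.19. The third helicase of the group, Dhx58 (LGP2), gave -0.07, -0.88 and -0.48. Eif2ak2 (PKR), the kinase that halts translation, was at 86.2, 126, 54.6 and 164. Trim25, a ligase that activates RIG-I, was at 114, 146, 55.2 and 110. Its log2 ratio of -1.04 at 6 hr was the one call of a lower level among the members, and relative to the coding median it was -0.29. Adar, which edits double-stranded RNA, was at 202, 168, 108 and 143, below the untreated library at each time. Zbp1, a sensor of Z-form nucleic acid, was at 10.5, 39.2, 30.1 and 99.8, and was 9.52-fold above the untreated library at 24 hr. Its log2 ratio at 24 hr, 3.25, was the highest of the 39 members at that time.

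Among genes whose proteins act at membranes, Ifitm3, Ifitm2 and Bst2 had high RNA levels before treatment, and Ifitm1 a lower one. Ifitm3, which blocks fusion of viruses in endosomes, was at 13734, 16162 at 1.5 hr, 7071 at 6 hr and 16420 at 24 hr. Its log2 ratios of 0.23 and 0.26 at 1.5 and 24 hr were -0.18 and 0.20 relative to the medians of coding genes. Of the 50-base sequences of Ifitm3 and Ifitm2, 10.0% and 11.1% also occur in other coding genes. Ifitm2 was at 7123, 13122, 4109 and 11089.5. Bst2 (tetherin), which holds budding virions at the surface, was at 1226, 1999, 678 and 2234. Neither reached 2-fold. Ifitm1, the least abundant of the 3 Ifitm genes, was at 151, 314, 176 and 495. It was 3.28-fold above the untreated library at 24 hr, but its untreated columns differed, so that the log2 ratio at 24 hr was 2.31 from R1 and 1.23 from R2, and at 1.5 hr 1.58 and 0.66.

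Rsad2 (viperin) and Cmpk2 are neighbours on chromosome 12 whose enzymes act in a pathway for antiviral nucleotides. They had the highest log2 ratios of all members at 1.5 hr, 3.48 and 4.21, at low levels. Rsad2 was at 1.88, 21.1, 3.71 and 9.04, and Cmpk2 at 0.397, 7.37, 4.20 and 3.45. The R1 and R2 columns gave ratios of 3.39 and 3.59 for Rsad2 and of 4.00 and 4.52 for Cmpk2.

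The 4 ADP-ribosylation genes were each at least 2-fold higher at 1.5 and at 24 hr. PARP9 works as a complex with the ubiquitin ligase DTX3L, and PARP12 and PARP14 are related mono-ADP-ribosyltransferases. Parp9 was at 29.1 before treatment, then 181, 52.6 and 99.5 at 1.5, 6 and 24 hr. Parp12 was at 40.4, 146, 46.4 and 113. As deposited, each of the 4 was highest at 1.5 hr, when the folds were 6.22 for Parp9, 5.31 for Dtx3l, 8.78 for Parp14 and 3.61 for Parp12. At 24 hr Parp9, Dtx3l and Parp14 were below their own level at 1.5 hr by log2 ratios of -0.87, -1.09 and -1.11. At 6 hr Dtx3l was 2.96-fold and Parp14 2.55-fold above the untreated library. Relative to the coding median, Dtx3l was highest at 6 hr, with a log2 ratio of 2.32 against 1.997 at 1.5 hr, and the other 3 remained highest at 1.5 hr. The 6 hr columns of Dtx3l differed, at 84.8 in R1 and 56.6 in R2. As deposited, their log2 ratios were 1.82 and 1.25, so whether Dtx3l was highest at 6 hr on that scale is uncertain. None reached a mean of 100, so the call does not include them.

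**Figure D3:**
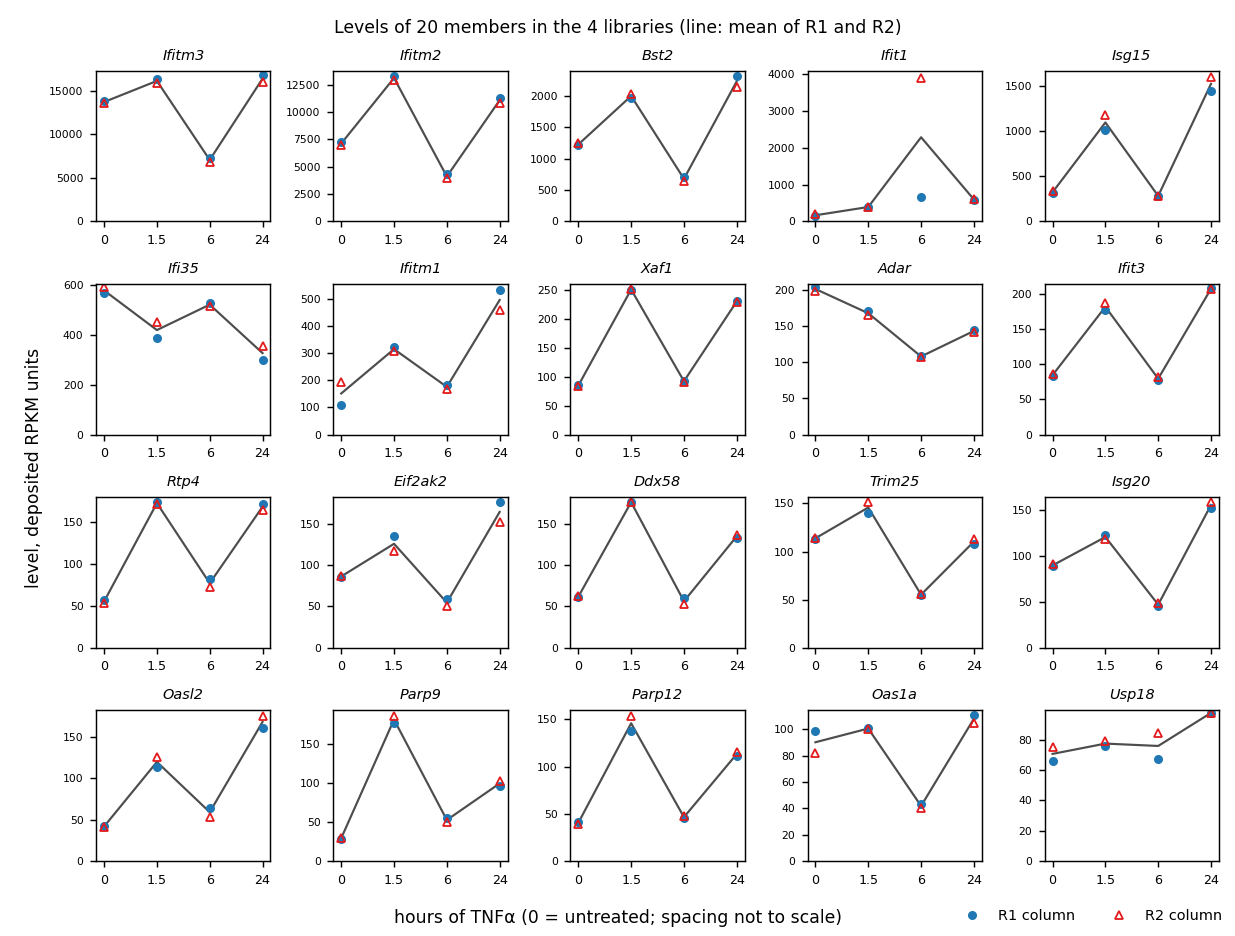
Levels in deposited RPKM units (y axes, each starting at 0) of the 20 members with the highest means in the untreated library and after 1.5, 6 and 24 hr of TNFα (x axes). Circles and triangles are the R1 and R2 columns and the line is their mean. Most panels show a lower value at 6 hr than at 1.5 and 24 hr, Parp9 is highest at 1.5 hr (181), and the columns of Ifit1 part at 6 hr (663 and 3904).

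Among the remaining members, Rtp4, a chaperone of receptors, was at 55.1, 172, 76.8 and 168, and Xaf1, which promotes apoptosis, was at 84.7, 251, 92.3 and 230.3. Rtp4 was 3.12-fold and Xaf1 2.96-fold higher at 1.5 hr, and at 24 hr the folds were 3.05 and 2.72, with columns that differed by at most 0.17 on the log2 scale in any library. Isg20, an exonuclease for RNA, was at 89.3, 120.2, 46.8 and 155. Ifi35 was highest before treatment, at 577, 418, 520.0 and 326. Samd9l, a restriction factor for poxviruses, was 9.70-fold higher at 1.5 hr and 6.54-fold at 24 hr from an untreated level of 8.11. Trim21, an intracellular receptor for antibodies, was 4.26-fold higher at 1.5 hr and 1.73-fold at 24 hr. Ifi44 had log2 ratios of 1.83, 0.90 and 2.46.

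Members differed in when they were highest. The highest of the 4 levels was at 1.5 hr for 19 members, at 24 hr for 15, in the untreated library for 4 (Ifi35, Adar, Dhx58 and Oas2) and at 6 hr for Ifit1. For coding genes above 0, 51.1% were highest at 1.5 hr and 10.4% at 24 hr. After scaling to the median of ratios, which lowers the 1.5 hr library, 7 members were highest at 1.5 hr, 8 at 6 hr and 19 at 24 hr, beside 26.4%, 19.5% and 20.9% of coding genes. The 8 were Ifit1, Ifi35, Usp18, Dtx3l, Oas1b, Mx2, Herc6 and Cmpk2. As deposited, between 1.5 and 24 hr, 4 members were higher at 24 hr by more than 0.5 on the log2 scale, which were Zbp1 (1.35), Ifitm1 (0.66), Ifi44 (0.63) and Ifit1 (0.61). In the other direction 8 exceeded 0.5, and these were Trim21 (-1.30), Rsad2 (-1.22), Parp14, Dtx3l, Cmpk2, Parp9, Mx2 and Samd9l. Each of these 12 differences had the same sign in both columns, which belong to the same library and say nothing on variation between libraries. Of 15017 coding genes above 0 at both times, 6.71% were higher at 24 hr and 33.6% at 1.5 hr by more than 0.5. The balance turned with the scaling, since relative to the median of ratios 13 members exceeded 0.5 toward 24 hr, Isg15, Oasl2 and Eif2ak2 among them, and 6 toward 1.5 hr, beside 13.8% and 12.4% of coding genes. Those 6 were Trim21, Rsad2, Cmpk2, Parp9, Dtx3l and Parp14. For Ifitm3 (0.02) and Rtp4 (-0.04) the levels at 1.5 and 24 hr differed by less than the R1 and R2 columns did at 24 hr (0.07 for each). As deposited, 17 of the 39 members were higher at 24 than at 1.5 hr, beside 21.96% of coding genes, and the median over members was -0.15, against -0.34. At 6 hr 35 members were below both their 1.5 and their 24 hr levels, beside 79.2% of coding genes, and after scaling to the median of ratios these were 21 members and 47.7% of coding genes.

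The genes that carry the interferon signal were examined as a list of 41 ligands, receptors, kinases, factors and regulators. All 11 ligands on it had means under 1, and Ifnb1, the interferon that fibroblasts make first, was listed at 0 in every library. The highest level of any ligand in any library was 1.62. Of the 6 receptor chains, 4 were called higher at 1.5 hr and the same 4 at 24 hr. Relative to the coding median Ifnar1 lost its call at 24 hr (0.98) and the other 3 did not. Ifnar1 was at 84.3, 273, 73.5 and 174. Ifngr2, of the receptor for interferon γ, was at 184, 975, 251 and 711, and Ifngr1 (log2 ratios 2.19 at 1.5 hr and 1.50 at 24 hr) and Il10rb (2.09 and 1.65) were the others. Of genes outside the call, picked with their values known, Ifnar2 did not reach 2-fold (0.58 and 0.42). Jak1 was called higher at 1.5 hr only (1.15), whereas Tyk2 (0.03) was not called. Stat2 gave -0.33, -0.33 and -0.29 and Irf9 0.10, -0.81 and -0.04. Not all genes outside the call were this flat. Jak2 (2.44 at 1.5 hr and 1.88 at 24 hr) and the negative regulator Ptpn2 (2.42 and 1.72) missed it through means of 77.2 and 82.0.

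Irf1 was the one gene of the list called higher at all 3 times, at 114 before treatment, then 1289, 391 and 313 at 1.5, 6 and 24 hr. It was highest at 1.5 hr. Irf5 (1.68), Irf2 and Tmem173 (STING, 1.07), the adaptor of cytosolic DNA sensing, were called higher at 1.5 hr. Relative to the coding median Irf2 (0.64), Tmem173 (0.66) and Jak1 (0.74) lost this call, and the other 6 genes did not. Irf7, which amplifies interferon production, had log2 ratios of 0.09, -0.43 and 0.76. In all, in order of time, 9, 1 and 5 of the 41 genes were called higher, and only Mavs and Ticam1, both at 6 hr, were called lower, beside shares of coding symbols called higher of 8.88%, 0.547% and 5.02%, and called lower at 6 hr of 9.39%. After scaling to the median of ratios, 6, 3 and 4 genes were called higher, beside 4.93%, 2.19% and 4.49% of coding symbols. The values of Mavs and Ticam1 were then -0.33 and -0.32.

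**Figure D4:**
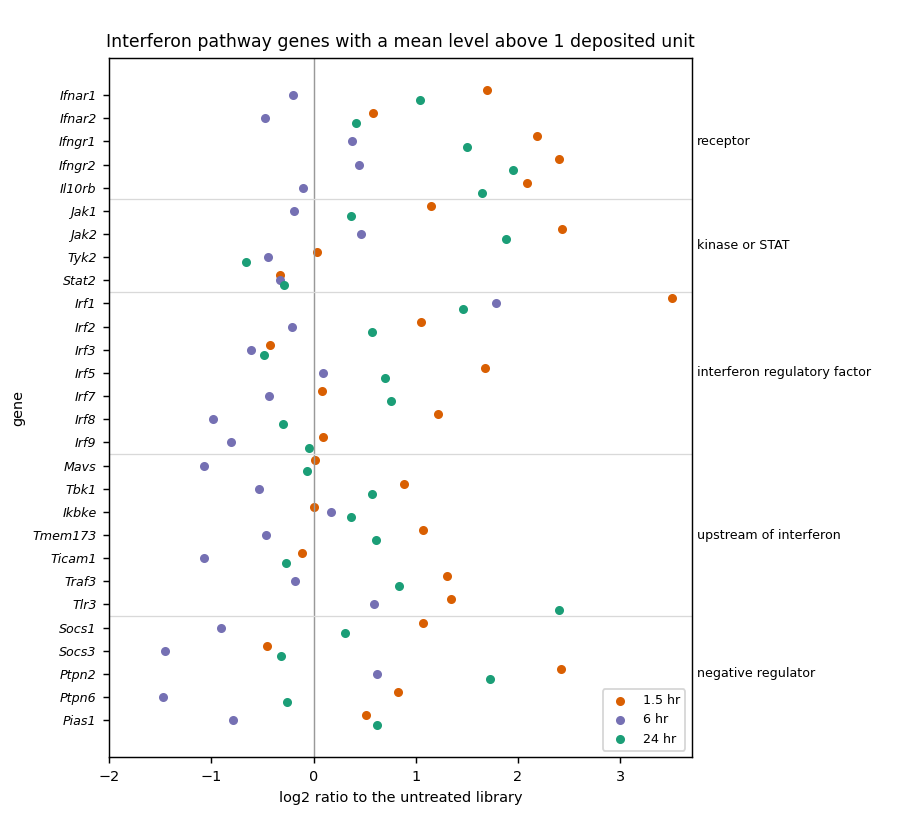
Log2 ratio to the untreated library (x axis) at 1.5, 6 and 24 hr for genes of the interferon pathway list with a mean level above 1 (y axis, grouped by class), except 1 that is not reported here. Irf1 at 1.5 hr (3.50) is the highest point, the receptor chains Ifngr2 (2.40) and Ifngr1 (2.19) follow among those with a mean above 100, and no ligand is shown since all were under 1.

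H3K4me3 in untreated MEFs was compared with the starts of the members in the GENCODE annotation of mm9. A deposited peak lay within 1 kb of a start for 18 of the 39 members, and in each of these it covered the start. Of 19724 coding genes with an annotated start, 54.2% had such a peak. Among coding genes the share with a peak was larger at higher untreated levels, so members are set beside coding genes of like level. Of the 9 members with a level above 0 and up to 10, 3 had a peak, where 24.6% of 4103 coding genes did. Of the 21 members with a level of 10 to 100, 9 had a peak, where 76.8% of 5781 coding genes did. Of the 6 with a level of 100 to 1000, 3 had a peak (Adar, Trim25 and Ifi35), where 91.4% of 4745 coding genes did. The 3 members without one at these levels were Isg15, Ifit1 and Ifitm1. All 3 members above 1000 had a peak, as did 93.2% of 886 coding genes. The deposited peaks have fold enrichments of 20 or more, so a weaker mark at these starts would not be listed. Whether the members differ from other genes in this was not tested.

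**Figure D5:**
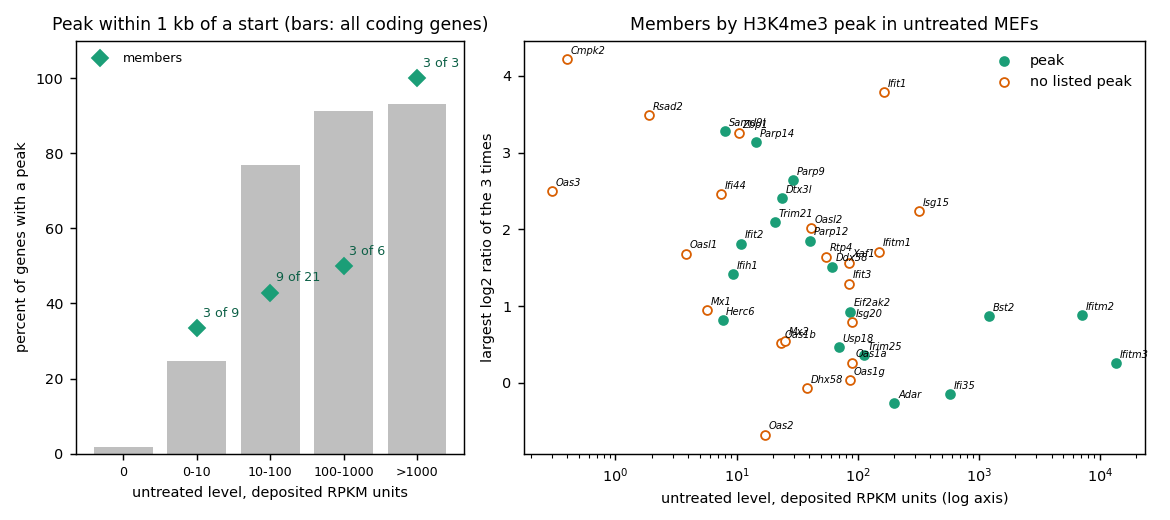
Left, percent of coding genes (bars) and of members (diamonds) with an H3K4me3 peak within 1 kb of a start, by untreated level. Right, the untreated level (log axis) and the largest log2 ratio of the 3 times for each member, filled where a peak was listed. Isg15 and Ifit1, at levels of 324 and 165, have no listed peak, and Samd9l, Parp14 and Parp9 have one at levels of 8.11 to 29.1.

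None of the 5 Oas genes in their cluster on chromosome 5, and neither Oasl1 nor Oasl2 elsewhere on it, had a peak within 1 kb of a start. The nearest to Oas2 ended 122824 bp from its start. In the Ifit cluster, Ifit2 (chr19:34625184-34650909) had a peak of 765 tags, whereas the nearest peak to Ifit1 (chr19:34715361-34724499) lay 20838 bp away. For Isg15 (chr4:155573533-155574927) the nearest peak was 1433 bp from the start. Each of the 4 ADP-ribosylation genes had a peak. Parp9 (chr16:35938556-35972691) and Dtx3l (chr16:35926597-35939237) lie head to head on opposite strands, and 1 peak of 1186 tags (chr16:35937596-35940610, fold enrichment 48.9) covers both starts. Rsad2 and Cmpk2, whose levels were near 0 before treatment, had their nearest peak 40798 and 53569 bp away. The largest log2 ratio of the 3 times had a median of 1.17 in the 18 members with a peak and 1.64 in the 21 without, at median untreated levels of 51.0 and 38.2.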

How the data were processed

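Poly-A RNA of WT MEFs was sequenced as directional paired-end libraries. The authors mapped reads to mm9 with TopHat and deposited RPKM values per RefSeq transcript, in 2 columns (R1, R2) per library on a scale of their own. Columns were tied to times through the names the paper lists. One protocol field of the 24 hr library describes ChIP, whereas its title, treatment and library source describe RNA. For ChIP-seq the authors used Bowtie for mapping and MACS for peaks. Their deposited list gives tag counts, a score made from the p-value, a fold enrichment ratio, an FDR in percent, and tags per bp as a signal.

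Among 25684 NM_ rows, R1 and R2 were averaged and the row with the highest mean was kept per symbol. Ratios to the untreated library were taken without a pseudocount. Calls needed a mean above 100 and a 2-fold difference. The calls were also run on simulated data with 200 changed genes, from which no result is given here. How often a call is wrong in these libraries was not tested. Values in every library are given for members with a mean above 100 and the next 5 by mean. Of the called pathway genes, Ifnar1, Ifngr2 and Irf1 have values in every library, and the others log2 ratios at some times. Of the pathway and marker lists, 2 genes are counted but not reported here by name. Members and lists were chosen with earlier results of these data known. Alternatives covered scaling, columns, filters, folds, pseudocounts, paralogs, and peak and motif rules. Python 3.11.15, numpy 2.4.6, pandas 2.3.3 and matplotlib 3.10.9 were used.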

Additional observations from a re-analysis of the deposited data

Results flagged for a closer look

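Isg15, Ifit3 and Ddx58 were called higher at 1.5 hr but were below the untreated library at 6 hr in both columns, with log2 ratios of -0.20, -0.089 and -0.13. Relative to the median of coding genes at 6 hr, the same values were 0.55, 0.66 and 0.62. Trim25, called lower at 6 hr, was above the untreated library at 1.5 hr in both columns, with a log2 ratio of 0.36, and relative to the coding median that value was -0.054. With 1 library per time, the difference between times was not tested for any of these 4 genes.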

How the results depend on the processing

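With 1 library per time nothing can be left out within a time, and the depth is unknown. No paired analysis was possible because each group has 1 library. Causes of the changes below were not tested unless fewer genes or another scale make them.

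Of 103 values of main results under alternatives, 59 kept their value within the margin set. For counts the margin was a factor of 1.5. For the members' medians it was the larger of the differences that R1 or R2 alone made. Medians from a single column were therefore within it by construction. For calls, shares of coding symbols are given above only for the main call, for no minimum mean and for the median of ratios. Other counts of calls are not set against other genes. Without close paralogs, the Oas1, Oasl, Ifit, Ifitm and Mx genes were left out, so those counts are out of fewer members. The 7 members called higher at 1.5 hr became 4 after scaling to the median of ratios, 4 without close paralogs, 22 without a minimum mean, 12 with a mean above 50 and 2 at 3-fold. The 7 at 24 hr became 4 without paralogs, 21 without a minimum, 12 with a mean above 50, 11 at 1.5-fold and 4 at 3-fold. The 1 called higher at 6 hr became 4 when scaled to the sum, 2 under the median of ratios, 0 without paralogs, 6 without a minimum and 3 with a mean above 50. The 1 called lower at 6 hr became 0 under either scaling, at 3-fold and with a pseudocount of 10, 4 without a minimum, 3 with a mean above 50 and 7 at 1.5-fold. The members' median at 1.5 hr (1.24) was 0.99 scaled to the sum, 0.82 under the median of ratios, 1.60 without paralogs, 0.86 and 0.25 with pseudocounts of 10 and 100, and 0.88 for means above 100. At 6 hr (0.09) it was 0.92, 0.84 and, for means above 100, -0.20. From R1 and R2 alone it was 0.03 and -0.04 at 6 hr, so its sign differed between the columns. At 24 hr (1.19) it was 1.24, 1.13, 1.26 from the lowest row per symbol, 1.26 without paralogs, 0.70 and 0.26 with the pseudocounts, and 0.93 for means above 100. Members highest at 24 hr numbered 7 in place of 15 without paralogs. The ISRE core count of 14 became 5 for the triple repeat, and the 18 members with an H3K4me3 peak stayed within the margin. In settings chosen after seeing the data, pathway genes called higher were 16 at 1.5 hr and 11 at 24 hr without a minimum, and 3 at 6 hr under the median of ratios. Under that scaling, members higher at 24 than at 1.5 hr by over 0.5 were 13 in place of 4. Likewise 9 members were called higher at 1.5 and at 24 hr when the 6 hr library was left out of the mean. Of 300 values of single members, 20 took another sign, 12 of them at 6 hr, and 0 of the 20 belonged to a called ratio. A called ratio is at least 2-fold from the untreated library, further than either scaling moved a library, so this 0 was nearly fixed beforehand. Calls could still be lost. Under the median of ratios those of Ifit1, Ifit3 and Ifitm1 at 1.5 hr and of Trim25 at 6 hr were.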
